A study of Mus musculus with 11 samples.

Results

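Glucocorticoids, the corticosterone of the mouse, reach every organ through the blood and act through the glucocorticoid receptor, a nuclear receptor held in the cytoplasm by chaperones until the hormone binds. The receptor then enters the nucleus, binds glucocorticoid response elements in DNA and raises or lowers transcription of its targets. In the heart, receptor and targets are carried by cardiomyocytes and by the vascular, stromal and immune cells around them. A small group of targets is widely used as a readout of exposure to the stress hormone, and such exposure is one possible source of differences between groups of handled and injected mice. Here 10 genes of this kind were followed in 11 mouse hearts. They were picked by name from a count table of 22608 genes, by matching the Ensembl identifier, without its version, to the symbol in the GENCODE M21 annotation. All 10 were in the table and 9 of them were among the 11319 genes abundant enough to be tested. The receptor gene itself is Nr3c1. Its classical targets are Fkbp5, Tsc22d3, Sgk1, Zbtb16 and Klf9. Cdkn1a, Mt1, Mt2 and Hif3a also answer to other signals.

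The hearts came from male mice aged 8 to 16 weeks on a C57BL/6J background. CD mice (strain label WBS-CD), a model of Williams-Beuren syndrome, carry a complete deletion of the syndrome's chromosomal interval on 1 of their chromosomes 5, and WT mice were their littermates. Each genotype received a daily intraperitoneal injection of vehicle (VEH) or of JZL184, which irreversibly blocks monoacylglycerol lipase and so slows breakdown of the endocannabinoid 2-arachidonoylglycerol, at 8 mg/kg for 10 days, and ventricle RNA was sequenced from 2 WT and 3 CD mice given VEH and from 3 WT and 3 CD mice given JZL184. The labels call the control mice untreated in one field and vehicle in their titles. All 4 groups therefore share handling and, as the study's methods describe it, repeated injection, so no group without injections was available for comparison, and no hormone level was analysed here. Values are CPM, a gene's counts per 1000000 counts of the library as scaled by edgeR, with mice named by the letter of their column. WT VEH had only 2 mice, so each comparison with it rests on 2 control hearts.

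The hearts were sequenced to between 69660232 and 92251443 estimated counts per mouse, of which mitochondrially encoded transcripts took 36.4% to 46.6%. This share differed between groups, from 36.4% to 40.1% in CD JZL184 and from 45.0% to 46.6% in WT JZL184, and leaving those transcripts out is among the alternatives below. At this depth 3 counts corresponded to between 0.0305 and 0.0433 CPM. Cardiomyocyte markers were abundant in every heart (summed level 28097 to 40136 CPM over 6 genes), whereas lymphocyte and adipocyte markers were close to absent (at most 3.37 and 1.27 CPM over 6 genes each). Erythroid markers ranged from 1416 to 18788 CPM, the highest value being in CD VEH mouse A. A gene was called changed when the adjusted p of edgeR's quasi-likelihood test, over all 11319 tested genes, was under 0.05. In these data a call is common. Of all tested genes, 30.4% were called between CD VEH and WT VEH, so counts among the 9 tested glucocorticoid genes are given beside this background.

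Before the values, the regulatory sequence of 3 members is shown, because Sgk1 and Mt2 are the members with the largest interaction of genotype and JZL184 below and Mt1 is the close neighbour of Mt2. The 250 bases before each RefSeq start (mouse build GRCm38.p6) were searched on both strands for the palindromic glucocorticoid response element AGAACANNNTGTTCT, for its half-site AGAACA, which is contained in the full element, and for a relaxed metal response element core TGCNCNC. RefSeq starts were at hand for 8 of the 10 members, with 16 starts in all. Capitals mark the matches: half-sites and the full element in Sgk1, and metal response cores in Mt2 and Mt1.
Sgk1, the fifth of its 6 starts, chr10:21993640-21993889, + strand: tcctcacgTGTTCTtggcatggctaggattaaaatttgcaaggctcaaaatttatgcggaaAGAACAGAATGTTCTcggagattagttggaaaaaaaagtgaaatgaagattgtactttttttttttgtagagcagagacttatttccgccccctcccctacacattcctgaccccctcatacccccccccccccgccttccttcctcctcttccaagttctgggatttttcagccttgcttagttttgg
Mt2, chr8:94172368-94172617, + strand: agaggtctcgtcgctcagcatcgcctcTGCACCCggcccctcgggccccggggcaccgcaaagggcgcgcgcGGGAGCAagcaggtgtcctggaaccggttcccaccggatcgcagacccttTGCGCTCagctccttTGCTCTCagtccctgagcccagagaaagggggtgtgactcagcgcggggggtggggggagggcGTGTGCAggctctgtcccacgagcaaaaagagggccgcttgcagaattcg
Mt1, chr8:94178839-94179088, + strand: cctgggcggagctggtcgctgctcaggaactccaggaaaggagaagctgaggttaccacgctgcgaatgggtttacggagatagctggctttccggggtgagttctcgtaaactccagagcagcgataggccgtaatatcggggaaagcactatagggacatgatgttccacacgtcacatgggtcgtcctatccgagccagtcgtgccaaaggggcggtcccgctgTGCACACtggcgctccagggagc
The full element was present in 3 of 32851 mouse promoter windows of this length (0.00913%), and the Sgk1 window above was the only one of them among the members. A half-site was present in 16.1% of all windows, and 2 or more of them in 1.81%. This Sgk1 window held 3, of which 2 form the full element. A metal response core was present in 44.4% of all windows, and 5 or more of them in 0.344%. The Mt2 window held 5 and the Mt1 window 1. Bases after each start were not searched, so these counts do not compare whole promoters. These are matches of letters, and the deposited gene-level counts do not tell which Sgk1 start was used.

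Sgk1 encodes serum- and glucocorticoid-regulated kinase 1, a kinase controlling ion channels and cell survival, and lies on chromosome 10 (GRCm38, 21882184 to 21999903, + strand). It was the member with the clearest differences between groups. Its level was 46.6 and 46.6 CPM in the WT VEH hearts and 62.5, 61.2 and 65.8 CPM in the CD VEH hearts. In CD JZL184 hearts it was 33.5, 37.3 and 30.9 CPM, and in WT JZL184 hearts 56.1, 72.4 and 49.0 CPM. All 3 CD VEH hearts thus lay above both WT VEH hearts, all 3 CD JZL184 hearts lay below every other heart, and the WT JZL184 hearts overlapped those of CD VEH but not those of WT VEH.

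Compared with WT VEH, Sgk1 rose in CD VEH hearts by a log2 fold-change of 0.44 (SE 0.13, 1.35-fold, adjusted p = 0.0285). Compared with CD VEH, it fell in CD JZL184 hearts to 0.537 of the level (log2 fold-change -0.90, SE 0.12, adjusted p = 0.00202). In WT mice the JZL184 difference had the opposite sign (log2 0.34, SE 0.13) and did not pass the test (adjusted p = 0.0695), though it did with DESeq2 (log2 0.35, adjusted p = 0.0376) and without WT JZL184 mouse D (log2 0.46, adjusted p = 0.0195). The effect of JZL184 in CD minus that in WT, the interaction, was -1.24 on the log2 scale (SE 0.18, adjusted p = 3.1e-04). Between the JZL184-treated genotypes Sgk1 was 0.573 times as high in CD as in WT hearts (log2 -0.80, SE 0.12, adjusted p = 1.0e-03). Both the fall in CD mice and the difference between treated genotypes were called in 19 of 19 alternative analyses. The rise in CD VEH was less secure, since its adjusted p was 0.0644 without CD VEH mouse A, 0.0790 without CD VEH mouse E, 0.137 without WT VEH mouse C and 0.123 without WT VEH mouse D.

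Summed levels of markers of several other cell types moved with Sgk1. The summed level of 6 endothelial markers, all tested, was 532 to 538 CPM in WT VEH, 676 to 749 in CD VEH, 816 to 842 in WT JZL184 and 522 to 609 in CD JZL184. Macrophage markers (6 of 6 tested) ran from 229 to 240, 294 to 384, 299 to 506 and 202 to 233 CPM in the same group order, and fibroblast markers (6 of 6 tested) from 641 to 662, 764 to 884, 790 to 982 and 597 to 687 CPM. Smooth muscle and pericyte markers (5 of 6 tested) ran from 576 to 582, 789 to 909, 828 to 894 and 560 to 575 CPM. Rgs5 made up most of this sum and Dcn most of the fibroblast sum (means 571 and 464 CPM). Not every marker followed them. Acta2 was 48.7, 44.7 and 66.0 CPM in CD VEH against 50.1 and 67.5 in WT VEH. Col1a1, at 39.1 to 62.9 CPM, overlapped between all groups. Erythroid markers (5 of 6 tested) ran from 2030 to 2489, 2027 to 18788, 2637 to 5498 and 1416 to 2190 CPM. CD VEH mouse A held the highest sum, with 2878 and 2027 CPM in CD VEH mice C and E. With JZL184 in CD all 5 tested erythroid markers were called lower, as were 17.0% of all tested genes. No marker of these lists was at 0 in all mice. Their part in the Sgk1 differences was not tested, and in whole ventricle a change in the number of cells of a type and a change in RNA per cell cannot be told apart.

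**Figure D1:**
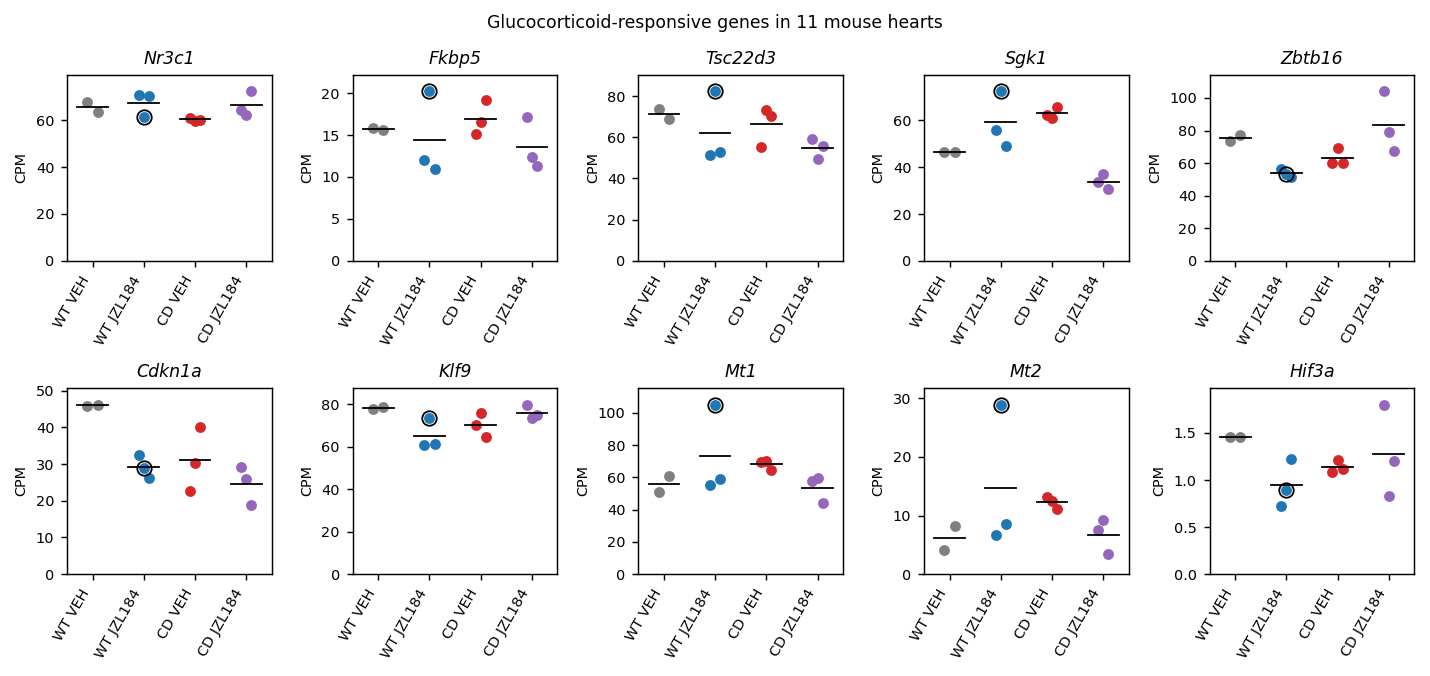
Level of the 10 genes in each of 11 hearts (y axis, CPM, from 0; points, mice; lines, group means; x axis, group), with WT JZL184 mouse B ringed. Sgk1 is lowest in the 3 CD JZL184 hearts (30.9 to 37.3 CPM), and the ringed mouse has the highest Mt2 value (28.9 CPM).

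Zbtb16 encodes a zinc finger transcriptional repressor, also called PLZF, that is strongly glucocorticoid-inducible in several tissues. It lies on chromosome 9 (48654297 to 48836222, - strand). Its JZL184 differences had the opposite sign to those of Sgk1 in both genotypes. WT VEH hearts had 73.4 and 77.0 CPM and WT JZL184 hearts 56.6, 53.3 and 51.2 CPM, with no overlap. CD VEH hearts had 60.3, 69.2 and 60.1 CPM and CD JZL184 hearts 104, 79.4 and 67.4 CPM, where the lowest treated heart lay below the highest vehicle heart.

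In WT mice Zbtb16 fell with JZL184 (log2 fold-change -0.49, SE 0.14, 0.714 of the level, adjusted p = 0.0236), and in CD mice it rose (log2 0.40, SE 0.13, 1.32-fold, adjusted p = 0.0288). The interaction was 0.89 (SE 0.19, adjusted p = 0.00238). Treated CD hearts had 1.56 times the Zbtb16 level of treated WT hearts (log2 0.64, SE 0.13, adjusted p = 0.00308). This difference held in 19 of 19 alternatives and the interaction in 18 of 18. The CD difference was 0.22 without CD JZL184 mouse A (adjusted p = 0.104) and also missed the threshold without CD VEH mouse A (adjusted p = 0.0941) or mouse E (adjusted p = 0.0950). The WT difference missed it without WT JZL184 mouse B (adjusted p = 0.0546), WT JZL184 mouse D (0.0634), WT VEH mouse C (0.0965) or WT VEH mouse D (0.122). Between vehicle groups all 3 CD hearts were below both WT hearts, and the difference did not pass the test (log2 -0.25, SE 0.14, adjusted p = 0.186), though it did when only these groups were fitted (adjusted p = 0.0350). Cardiomyocyte markers (6 of 6 tested, none at 0 in all mice) summed to 39874 to 40136 CPM in WT VEH, 28097 to 37718 in WT JZL184, 32835 to 35809 in CD VEH and 36798 to 38990 in CD JZL184. Like the group means of Zbtb16, and of Klf9, Klf15 and Fbxo32 described below, this sum was higher in WT VEH and CD JZL184 than in CD VEH. Its part in their differences was not tested. The markers did not all follow the sum, since 2 were higher and 4 lower in CD VEH than in WT VEH. Myl2 was 7295 to 7868 CPM in CD VEH, 6422 to 6532 in WT VEH and 5852 to 6304 in CD JZL184. Tnni3 was 3216 to 3339, 2753 to 2805 and 2738 to 2864 CPM in the same order.

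Klf9, a Krüppel-like zinc finger factor induced by glucocorticoid and thyroid hormone, lies on chromosome 19 (23141226 to 23168134, + strand). Its levels spanned a narrow range. WT VEH hearts had 77.9 and 78.5 CPM, WT JZL184 hearts 60.6, 73.4 and 61.4, CD VEH hearts 70.0, 75.7 and 64.5, and CD JZL184 hearts 79.7, 73.3 and 74.9 CPM. Klf9 followed the same directions as Zbtb16 at a smaller size. It fell with JZL184 in WT (log2 -0.27, SE 0.09, adjusted p = 0.0463), and the treated genotypes differed by 0.22 (SE 0.08, adjusted p = 0.0493). The interaction was 0.38 (SE 0.12, adjusted p = 0.0212). Each of these calls was near the threshold. When only the compared groups were fitted the adjusted p was 0.140 for the WT difference and 0.0957 between treated genotypes. With upper quartile scaling it was 0.0883 for the WT difference, 0.0815 between treated genotypes and 0.0532 for the interaction. Leaving out WT VEH mouse C gave 0.165, 0.0676 and 0.0586, and leaving out WT VEH mouse D gave 0.169, 0.0676 and 0.0637. The WT call and that between treated genotypes were also lost without CD JZL184 mouse A, C or E, CD VEH mouse A, or WT JZL184 mouse A or D (adjusted p from 0.0560 to 0.122 in WT and from 0.0655 to 0.152 between treated genotypes). The interaction call was lost without CD JZL184 mouse A (adjusted p = 0.0513) or CD VEH mouse E (0.0508). In CD mice the JZL184 difference was 0.12 (95% interval -0.06 to 0.29, adjusted p = 0.283).

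Cdkn1a encodes p21, a cyclin-dependent kinase inhibitor induced by p53 as well as by glucocorticoids (chromosome 17, 29090976 to 29100727, + strand). The 2 WT VEH hearts held the highest values of the series, 46.0 and 46.2 CPM. WT JZL184 hearts had 32.6, 29.0 and 26.3 CPM, CD VEH hearts 22.7, 30.3 and 40.0 CPM and CD JZL184 hearts 29.1, 26.0 and 18.9 CPM, and these 3 groups overlapped each other. Cdkn1a fell with JZL184 in WT (log2 -0.66, SE 0.20, 0.635 of the level, adjusted p = 0.0327). Its difference between CD VEH and WT VEH was of similar size (log2 -0.57, SE 0.20) and narrowly missed the threshold (adjusted p = 0.0525), which DESeq2 put at 0.0184. It passed without CD VEH mouse E (log2 -0.80, adjusted p = 0.0212) or CD JZL184 mouse E (log2 -0.57, adjusted p = 0.0388), with the gene length offset (adjusted p = 0.0432) and when only these groups were fitted (adjusted p = 0.0485). The interaction was 0.33 (95% interval -0.28 to 0.93, adjusted p = 0.343). The WT call rests on the 2 vehicle hearts and 3 treated ones, and its adjusted p was 0.134 without WT VEH mouse C, 0.126 without WT VEH mouse D, 0.0716 without WT JZL184 mouse B and 0.0889 without WT JZL184 mouse D.

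Mt1 and Mt2 encode metallothioneins, small cysteine-rich proteins that bind zinc and copper and whose genes are induced both by metals, through the factor MTF1, and by glucocorticoids. They are neighbours on chromosome 8, with Mt2 at 94172664 to 94173568 and Mt1 at 94179082 to 94180327, both on the + strand. Mt1 was 51.2 and 61.1 CPM in WT VEH, 69.5, 70.0 and 64.7 in CD VEH, 57.5, 59.4 and 44.2 in CD JZL184, and 55.5, 105 and 59.0 in WT JZL184. Mt2 was 4.05 and 8.22 CPM in WT VEH, 13.2, 12.5 and 11.1 in CD VEH, 7.52, 9.18 and 3.36 in CD JZL184, and 6.76, 28.9 and 8.52 in WT JZL184. For both genes every CD VEH heart lay above every WT VEH and every CD JZL184 heart, and 1 WT JZL184 heart, mouse B, lay above all others.

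Neither gene was called in a comparison of 2 groups in the model of all 11 mice. When only the compared groups were fitted, which leaves WT JZL184 out, both were called between CD VEH and WT VEH (adjusted p = 0.0348 for Mt1 and 0.0175 for Mt2) and between CD JZL184 and CD VEH (adjusted p = 0.0282 and 0.0385). Between CD VEH and WT VEH the Mt2 difference was 0.99 on the log2 scale with a 95% interval of -0.26 to 2.25 (adjusted p = 0.204), and between CD JZL184 and CD VEH it was -0.87 (-1.96 to 0.21, adjusted p = 0.190). The corresponding Mt1 differences were 0.28 (-0.22 to 0.78, adjusted p = 0.367) and -0.34 (-0.78 to 0.10, adjusted p = 0.207). The Mt2 interaction passed the test at -2.12 (SE 0.76, adjusted p = 0.0352), and that of Mt1, at -0.72 (SE 0.31), did not (adjusted p = 0.0658). With the gene length offset the Mt2 interaction was -1.37 (adjusted p = 0.123). The values also depend on WT JZL184 mouse B, whose spread enters every comparison through the shared error. Without this mouse the Mt2 interaction was -1.17 (adjusted p = 0.0672). Without it the differences between CD JZL184 and CD VEH, in which it takes no direct part, were called for Mt1 (log2 -0.33, adjusted p = 0.0252) and Mt2 (log2 -0.86, adjusted p = 0.0424), as was the Mt2 difference between CD VEH and WT VEH (log2 0.99, adjusted p = 0.0481). Without WT JZL184 mouse A, Mt2 was called higher with JZL184 in WT (log2 1.60, adjusted p = 0.0411), and both genes were called lower in CD than in WT among treated mice (log2 -0.61 for Mt1, adjusted p = 0.0307, and -1.47 for Mt2, adjusted p = 0.0303). The Mt1 interaction was called without WT JZL184 mouse A (-0.88, adjusted p = 0.0225) or mouse D (-0.85, adjusted p = 0.0416). The Mt2 interaction also missed the threshold without CD JZL184 mouse A (adjusted p = 0.0514) or mouse E (0.0669), CD VEH mouse A (0.0633) or mouse C (0.0573), or WT VEH mouse C (0.145).

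**Figure D2:**
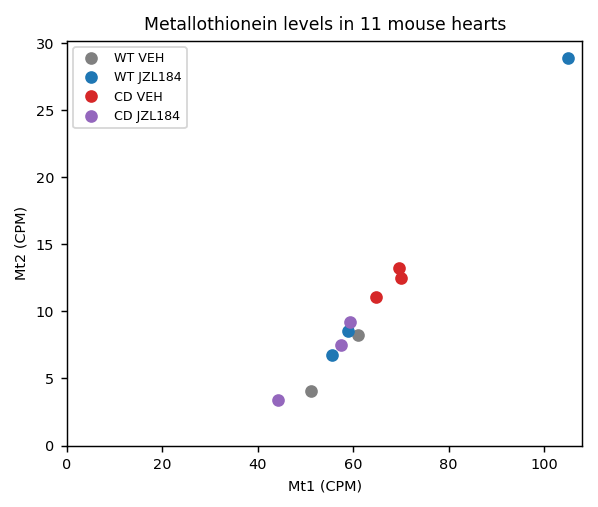
Mt2 against Mt1 in each of 11 hearts (CPM on both axes, from 0; points, mice, coloured by group). WT JZL184 mouse B stands at 105 and 28.9 CPM, and the CD VEH hearts lie together at 64.7 to 70.0 and 11.1 to 13.2 CPM.

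The 2 metallothioneins did not vary by the same factor. The ratio of their CPM, Mt1 to Mt2, was between 3.63 in WT JZL184 mouse B and 13.2 in CD JZL184 mouse E. Over the 11 hearts the highest Mt2 value was 8.62 times the lowest, against 2.38 times for Mt1. The coefficient of variation was 67.1% for Mt2 and 24.8% for Mt1, and its median over tested genes was 10.2%.

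Fkbp5 and Tsc22d3 are the targets most often read as signs of glucocorticoid exposure. Fkbp5 encodes FKBP51, a co-chaperone that lowers the receptor's affinity for hormone and so closes a negative feedback loop (chromosome 17, 28399094 to 28517527, - strand). Its level was 15.8 and 15.6 CPM in WT VEH, 15.1, 16.6 and 19.2 in CD VEH, 12.0, 20.2 and 10.9 in WT JZL184 and 17.1, 12.4 and 11.3 in CD JZL184. All groups overlapped in each comparison. The difference between CD VEH and WT VEH was 0.11 (95% interval -0.40 to 0.63, adjusted p = 0.738), that of JZL184 in WT -0.13 (-0.65 to 0.38, adjusted p = 0.689) and that of JZL184 in CD -0.32 (-0.78 to 0.14, adjusted p = 0.250). The WT difference was -0.46 without WT JZL184 mouse B (adjusted p = 0.0766) and 0.03 without WT JZL184 mouse D.

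Tsc22d3 encodes GILZ, the glucocorticoid-induced leucine zipper, a mediator of the hormone's anti-inflammatory action (chromosome X, 140539528 to 140600659, - strand). It was 73.9 and 68.8 CPM in WT VEH, 55.3, 73.4 and 70.3 in CD VEH, 51.2, 82.2 and 52.9 in WT JZL184 and 59.2, 49.4 and 55.6 in CD JZL184. The CD JZL184 hearts were all below both WT VEH hearts, but the difference did not pass the test (log2 -0.38, 95% interval -0.78 to 0.01, adjusted p = 0.549). The differences were -0.10 (-0.50 to 0.29, adjusted p = 0.680) for CD VEH against WT VEH, -0.20 (-0.60 to 0.20, adjusted p = 0.419) for JZL184 in WT and -0.28 (-0.63 to 0.08, adjusted p = 0.203) for JZL184 in CD. Without WT JZL184 mouse B the WT difference was -0.45 (adjusted p = 0.0276) and that in CD -0.27 (adjusted p = 0.0495). For both genes the intervals leave room for differences of about the size called for Klf9 or Zbtb16.

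Nr3c1, the receptor gene (chromosome 18, 39410545 to 39519421, - strand), was the steadiest member. Its level was 67.9 and 63.5 CPM in WT VEH, 70.7, 61.5 and 70.2 in WT JZL184, 61.0, 59.8 and 60.2 in CD VEH and 64.4, 62.3 and 72.2 in CD JZL184. The coefficient of variation over 11 hearts was 7.01%, and the highest heart had 1.21 times the level of the lowest. The 3 CD VEH hearts were the lowest of all 11, yet the difference from WT VEH was small (log2 -0.12, 95% interval -0.30 to 0.05, adjusted p = 0.255), as was the difference of CD JZL184 from CD VEH (0.14, -0.02 to 0.29, adjusted p = 0.158).

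Hif3a, an inhibitory subunit of the hypoxia-inducible factors that glucocorticoids induce in several tissues (chromosome 7, 17031507 to 17062427, - strand), was barely expressed, with 56 to 154 counts per heart. It was 1.46 and 1.46 CPM in WT VEH, 0.728, 0.898 and 1.22 in WT JZL184, 1.09, 1.21 and 1.12 in CD VEH and 1.28 ± 0.487 (mean ± SD, n = 3, 0.834 to 1.80) in CD JZL184. Both WT VEH hearts were above all CD VEH and WT JZL184 hearts. It was left out of the main test for its low level. In a fit of 19080 genes without that filter its difference was -0.62 for JZL184 in WT (SE 0.27, adjusted p = 0.134) and -0.35 for CD VEH against WT VEH (SE 0.27, adjusted p = 0.421), and none of the 6 comparisons called it.

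Per kilobase of exon, the mean level over 11 hearts was highest for Mt1 (50.9 CPM per kb), followed by Mt2 (17.5), Klf9 (14.9), Tsc22d3 (14.5), Zbtb16 (12.9), Sgk1 (10.4), Cdkn1a (8.88), Nr3c1 (8.44), Fkbp5 (1.59) and Hif3a (0.177). Fkbp5 was thus far below the receptor gene, and Hif3a was the least abundant.

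The share of members called was near or below that of all tested genes in each comparison. Between CD VEH and WT VEH, 1 of 9 tested members was called, Sgk1, against 30.4% of all tested genes. With JZL184 in WT, 3 of 9 were called by edgeR, all lower (Cdkn1a, Klf9 and Zbtb16), against a background of 29.4% in either direction and 14.0% lower. DESeq2, with a background of 33.2%, also called Sgk1, higher. With JZL184 in CD, 2 of 9 were called in opposite directions (background 33.9%), and between treated genotypes 3 of 9, 2 higher in CD and 1 lower (background 38.3%, of which 18.2% higher and 20.1% lower). The interaction called 4 of 9, 2 in each direction (background 51.5%, 25.3% positive and 26.2% negative). Groups that do not overlap were common in the whole table. The 2 groups did not overlap for 7 of 9 members in CD VEH against WT VEH (64.0% of all tested genes), 4 of 9 with JZL184 in WT (54.7%), 4 of 9 with JZL184 in CD (54.6%), 2 of 9 between treated genotypes (47.9%) and 3 of 9 in CD JZL184 against WT VEH (36.6%). Between CD JZL184 and WT VEH no member was called, at a background of 0.186%, that is 21 genes by edgeR and 1059 at an unadjusted p under 0.05, 2 of them members. DESeq2, with a background of 0.919% (104 genes), called 1 member there, Cdkn1a (log2 -0.90, adjusted p = 0.00297), whose level in all 3 CD JZL184 hearts was below that of both WT VEH hearts. The median log2 difference over the 9 members was -0.10, -0.13 and -0.32 for CD VEH against WT VEH, JZL184 in WT and JZL184 in CD, where the median over all tested genes was 0.01, 0.00 and 0.00. These comparisons share groups, WT VEH among them, so they are not independent of each other.

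**Figure D3:**
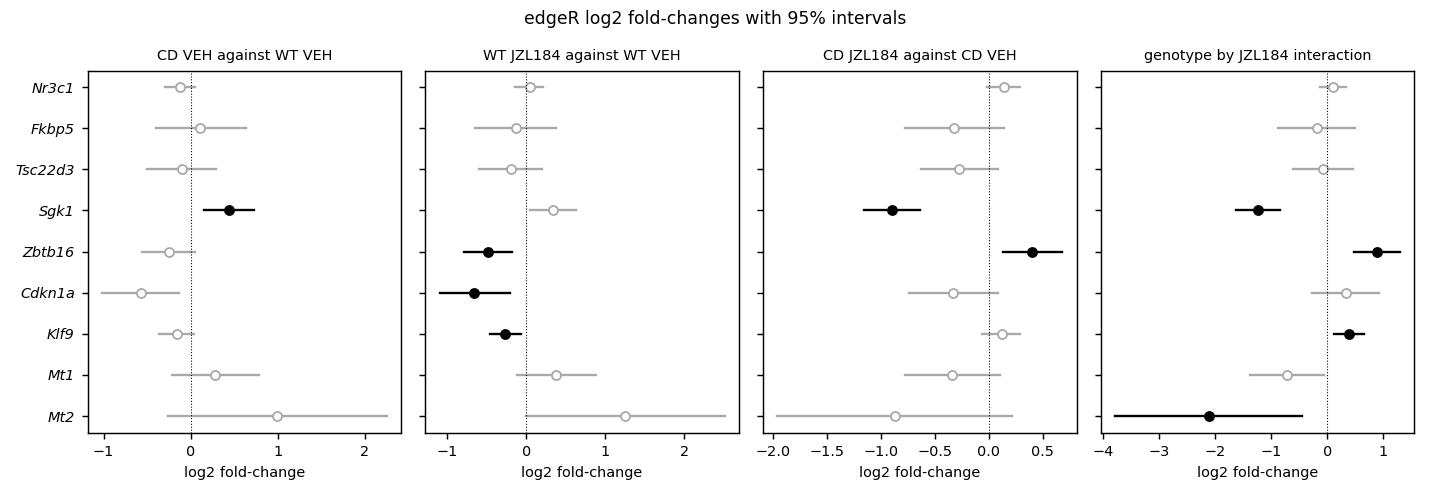
Log2 fold-changes (x axis; the scale differs between panels) of the 9 tested genes in 3 comparisons and for the interaction, with 95% intervals from edgeR; filled points were called at an adjusted p under 0.05. Sgk1 and Zbtb16 lie on opposite sides of 0 for JZL184 in CD (-0.90 and 0.40) and for the interaction (-1.24 and 0.89).

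By mouse rather than by group, WT JZL184 mouse B stood out. It held the highest value of all 11 hearts for 5 of the 10 members, Fkbp5, Tsc22d3, Sgk1, Mt1 and Mt2, and it was the highest heart for 19.8% of all tested genes. Against the median of the other 10 hearts its level was 1.32 times as high for Fkbp5, 1.43 for Tsc22d3, 1.51 for Sgk1, 1.78 for Mt1 and 3.46 for Mt2. The same heart was not high for Nr3c1 (61.5 CPM against a median of 64.0), Zbtb16 (53.3 against 68.3), Cdkn1a (29.0 against 29.7), Klf9 (73.4 against 74.1) or Hif3a (0.898 against 1.21). Outside the members, it held an extreme value for many clock genes. Of 13 tested, this heart was the highest for 7 (Per2, Per3, Nr1d1, Nr1d2, Dbp, Tef and Hlf) and the lowest for 3 (Arntl, Clock and Npas2), where it was the lowest for 19.2% of all tested genes. Per2 was 12.5 CPM against a median of 5.18, and Dbp, a clock output gene, 39.0 CPM. Per1, the clock gene that the receptor induces directly, was 22.7 CPM against a median of 17.7, with 3 hearts above it. Among 26 other tested glucocorticoid-induced genes this heart was the highest for 5, such as Dusp1, a MAP kinase phosphatase induced by stress hormone and by many other stimuli (72.0 CPM against 49.9), and the lowest for 4, such as Klf15. It also stood apart in cell markers and library. It had the lowest cardiomyocyte sum (28097 CPM) and the highest sums of macrophage (506) and fibroblast (982) markers. It also had the second-highest erythroid sum (5498) and the highest mitochondrial share (46.6%). Its atrial marker sum (221 CPM, 1 of 5 tested) was the highest through Nppa alone (220 CPM). Its Myl4, Myl7 and Sln, at 0.800, 0.0842 and 0.00 CPM, were not high. Their part in its values was not tested. Its immediate early gene Fos, at 9.71 CPM, was exceeded by 1 other heart. The clock genes and Fos in this heart were looked at after the members' values had been seen. Sex and labelled treatment were the same as for its group mates, and the times of injection and of collection of single mice were not given in the sources used here.

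**Figure D4:**
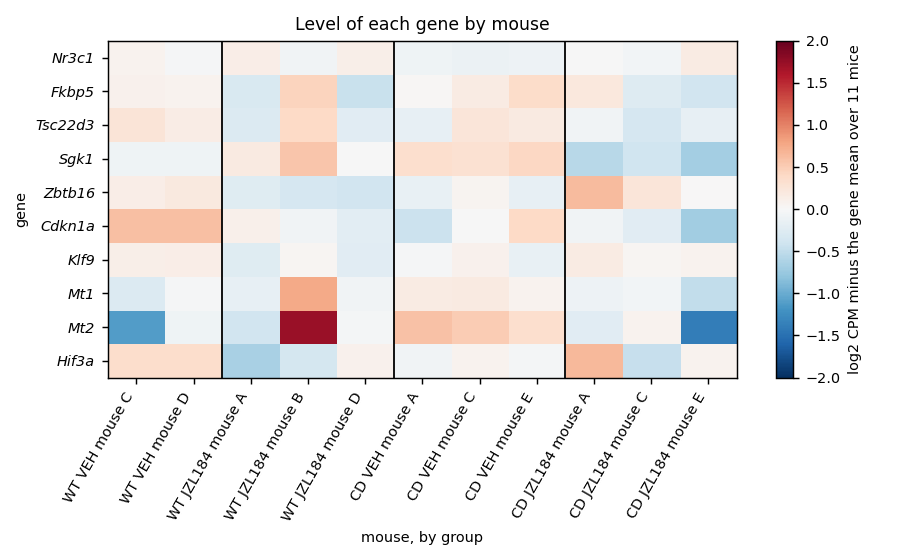
Log2 CPM of each gene (rows) in each heart (columns, by group, black lines between groups) minus the gene's mean over 11 hearts; red is above and blue below the mean. WT JZL184 mouse B is red for Mt2, Mt1, Sgk1, Fkbp5 and Tsc22d3, and the CD JZL184 hearts are blue for Sgk1.

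Of the list of receptors, ligand enzymes and cofactors, 20 of 21 genes were tested, the members Nr3c1 and Fkbp5 among them. The number called was 7, 7 and 8 of 20 in CD VEH against WT VEH, with JZL184 in WT and with JZL184 in CD, against backgrounds of 30.4%, 29.4% and 33.9%. Of these, 2 were higher and 5 lower in CD VEH than in WT VEH, 2 higher and 5 lower with JZL184 in WT, and 7 higher and 1 lower with JZL184 in CD (backgrounds 15.0% and 15.4%, 15.4% and 14.0%, and 16.8% and 17.0%). The median difference over the list was -0.22, -0.13 and 0.16 in these comparisons. Between CD JZL184 and WT VEH edgeR called no gene of the list, DESeq2 called 0, and 1 had an unadjusted p under 0.05.

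Hsd11b1, the enzyme that regenerates active glucocorticoid from its inert keto form inside cells, was 11.7 and 11.5 CPM in WT VEH, 19.9, 19.7 and 19.3 in WT JZL184, 15.1, 18.0 and 12.2 in CD VEH and 12.1, 11.9 and 10.8 in CD JZL184. It rose with JZL184 in WT (log2 0.76, SE 0.13, 1.69-fold, adjusted p = 0.00314) and was lower with JZL184 in CD (log2 -0.38, SE 0.11, adjusted p = 0.0226), with an interaction of -1.14 (SE 0.17, adjusted p = 3.6e-04). The interaction was called in 18 of 18 alternatives and the rise in WT in 19 of 19; the higher level in CD VEH than in WT VEH (log2 0.38, adjusted p = 0.0403) held in only 9 of 19. The fall in CD was called in 16 of 19 and was lost without CD JZL184 mouse E or CD VEH mouse A or C (log2 -0.22 at its smallest, adjusted p up to 0.0857). The endothelial marker sum given beside Sgk1 was likewise highest in WT JZL184 and next in CD VEH, and its part in the Hsd11b1 differences was not tested. Hsd11b2, which inactivates the hormone, was between 0.0305 and 0.141 CPM and was not tested.

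Nr3c2, the mineralocorticoid receptor, which in cardiomyocytes can also bind corticosterone, was 15.6 and 12.5 CPM in WT VEH, 10.6, 9.98 and 10.8 in WT JZL184 and 15.9, 14.2 and 17.3 in CD JZL184, and averaged 11.3 ± 1.18 CPM (SD, n = 3) in CD VEH. It fell with JZL184 in WT (log2 -0.42, SE 0.12, adjusted p = 0.0197), rose with JZL184 in CD (log2 0.48, SE 0.10, 1.40-fold, adjusted p = 0.00608) and had an interaction of 0.90 (SE 0.15, adjusted p = 7.4e-04). The fall in WT was called in 17 of 19 alternatives, not without WT VEH mouse C or WT JZL184 mouse B (adjusted p up to 0.218), and the rise in CD in 19 of 19. The p160 coactivator genes Ncoa1 and Ncoa2 were lower in CD VEH than in WT VEH (log2 -0.50 and -0.46, adjusted p = 0.00508 and 0.00312) and higher with JZL184 in CD (0.56 and 0.48, adjusted p = 0.00235 and 0.00227). The CD VEH call of Ncoa1 was lost without WT VEH mouse C (adjusted p = 0.0678). Abcb1a, an efflux pump that can export steroids, rose with JZL184 in WT (log2 0.65, SE 0.13, adjusted p = 0.00581), a call lost without WT VEH mouse D (adjusted p = 0.0620). Fkbp4, the co-chaperone that competes with FKBP51 on the receptor complex, ranged from 246 to 330 CPM and had adjusted p-values between 0.510 and 0.981 in the 6 comparisons.

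Of 28 other genes that glucocorticoids are known to induce, 26 were tested. With JZL184 in WT, 2 were higher and 6 lower, with JZL184 in CD 4 were higher and 4 lower, and between CD VEH and WT VEH 1 was higher and 4 lower (backgrounds 15.4% and 14.0%, 16.8% and 17.0%, and 15.0% and 15.4%). Klf15, a glucocorticoid-induced regulator of cardiac metabolism, had 49.3 and 48.8 CPM in WT VEH, 35.8, 30.9 and 31.9 in WT JZL184, 35.5, 40.0 and 34.3 in CD VEH and 49.2, 44.9 and 51.6 in CD JZL184. The 2 middle groups lay below both others without overlap. It was lower in CD VEH than in WT VEH (log2 -0.42, SE 0.09, adjusted p = 0.00636), lower with JZL184 in WT (-0.58, SE 0.09, adjusted p = 0.00231) and higher with JZL184 in CD (0.41, SE 0.08, adjusted p = 0.00399), and its interaction was 0.99 (SE 0.12, adjusted p = 1.6e-04).

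Fbxo32, the ubiquitin ligase atrogin-1, changed in the same directions as Klf15 (log2 -0.71, -0.67 and 0.67; adjusted p = 0.00466, 0.00573 and 0.00333). The WT difference of Fbxo32 was not called without WT VEH mouse D (adjusted p = 0.0547), nor the CD VEH difference of Klf15 without WT VEH mouse C (0.0593). Anxa1, annexin A1, an anti-inflammatory protein and classical target of the hormone, changed in the directions of Sgk1. It was 14.7 and 15.0 CPM in WT VEH, 20.1, 30.3 and 22.7 in WT JZL184, 26.0, 20.8 and 25.6 in CD VEH and 12.6, 16.4 and 13.2 in CD JZL184. It rose in CD VEH against WT VEH (log2 0.70, adjusted p = 0.0110) and with JZL184 in WT (0.72, adjusted p = 0.0105), and fell with JZL184 in CD (-0.78, adjusted p = 0.00383). Neither rise was called without WT VEH mouse C or mouse D (adjusted p up to 0.0834 in CD VEH and 0.0811 in WT). The macrophage, endothelial, fibroblast and smooth muscle marker sums given beside Sgk1 moved in the same directions as Anxa1, and their part was not tested. Pik3r1, the regulatory subunit of PI3 kinase, was lower with JZL184 in WT (-0.60, adjusted p = 0.0110, but 0.103 without WT VEH mouse C), and Cebpd, a bZIP factor of the acute phase response, was lower with JZL184 in CD (-0.87, SE 0.27, adjusted p = 0.0295), a call lost without CD JZL184 mouse A or C or CD VEH mouse A or E (adjusted p up to 0.132).

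Several fast or strong targets were not called in any comparison of 2 groups. Per1, a clock gene directly induced by the receptor, was 24.7 and 21.2 CPM in WT VEH, 8.70, 22.7 and 10.8 in WT JZL184, 19.8, 27.4 and 14.9 in CD VEH and 25.0, 9.88 and 15.6 in CD JZL184, so that hearts of 1 group spanned most of the range. Pdk4, a pyruvate dehydrogenase kinase that rises in fasting and with glucocorticoid, ranged from 261 to 1234 CPM, both within CD JZL184, and had adjusted p-values of 0.876 to 0.987. Ddit4, an mTOR inhibitor induced by stress, was 58.1 and 45.3 CPM in WT VEH and between 14.4 and 40.6 CPM elsewhere, with differences of -0.81 in CD VEH (adjusted p = 0.0912) and -0.89 with JZL184 in WT (adjusted p = 0.0708). Dusp1 was 0.35 higher in both (adjusted p = 0.0986 and 0.102), and its interaction was -0.63 (SE 0.20, adjusted p = 0.0210, but 0.0871 without WT VEH mouse D).

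Inflammatory genes that glucocorticoids repress were mostly below the filter, with 5 of 14 tested. The fitted differences of all 5 had 1 sign in each of the 3 comparisons given here. In CD VEH against WT VEH 3 of 5 were called, all higher, with JZL184 in WT 2 of 5, all higher, and with JZL184 in CD 3 of 5, all lower (backgrounds 15.0% and 15.4% higher and 17.0% lower). Il1b, encoding interleukin-1β, rose from 1.16 and 1.42 CPM in WT VEH to between 2.42 and 4.63 CPM in CD VEH (log2 1.48, SE 0.35, adjusted p = 0.0103) and fell with JZL184 in CD (-1.16, SE 0.29, adjusted p = 0.0117). Ccl2, a monocyte chemoattractant, was higher in CD VEH than in WT VEH (1.03, SE 0.28, adjusted p = 0.0194) and lower with JZL184 in CD (-1.18, SE 0.24, adjusted p = 0.00532). Nos2 and Vcam1 rose with JZL184 in WT (0.62 and 0.59, adjusted p = 0.00674 and 0.0369). The rises of Il1b and Ccl2 in CD VEH were not called without WT VEH mouse C or mouse D (adjusted p up to 0.0824 for Il1b), nor the fall of Il1b in CD without CD VEH mouse E (adjusted p = 0.0550), nor the rise of Ccl2 without CD VEH mouse A or E or with the gene length offset (adjusted p up to 0.140). The rise of Nos2 was not called without WT VEH mouse C (adjusted p = 0.0598), and that of Vcam1 without either WT VEH mouse or WT JZL184 mouse B or D (adjusted p up to 0.170). The macrophage and endothelial marker sums given beside Sgk1 move in the same directions as these genes, and their part was not tested.

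**Figure D5:**
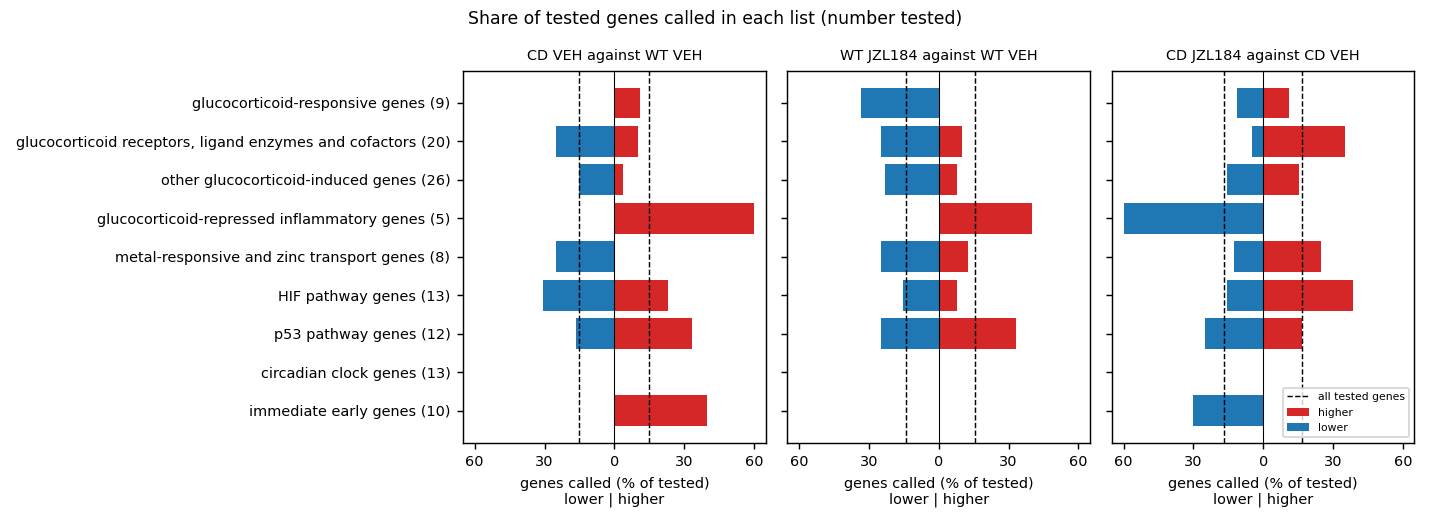
Share of each list's tested genes called higher (red, right) or lower (blue, left) in 3 comparisons (x axis, percent of the tested genes, whose number stands after the list's name); dashed lines give the share over all 11319 tested genes. The glucocorticoid-responsive genes have 1 of 9 higher in CD VEH, and the clock genes have none called in these comparisons.

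The lists that go with the members' other regulators were read in the same way. Of the metal-responsive and zinc transport genes, 8 of 11 were tested, Mt1 and Mt2 among them. Mtf1, the metal-sensing activator of both metallothioneins, was lower in CD VEH than in WT VEH (log2 -0.31, SE 0.06, adjusted p = 0.00627), lower with JZL184 in WT (-0.38, adjusted p = 0.00320) and higher with JZL184 in CD (0.23, adjusted p = 0.0108), opposite in sign to the Mt2 differences, which were not called. Slc39a14, a zinc importer, changed in the same directions as Mtf1 (-0.48, -0.41 and 0.34; adjusted p = 0.00797, 0.0140 and 0.0164). With the gene length offset the difference in CD was 0.13 for Mtf1 (adjusted p = 0.113) and 0.22 for Slc39a14 (adjusted p = 0.101). The Mtf1 difference in CD VEH was not called with the offset or without either WT VEH mouse (adjusted p up to 0.0525). The calls of Slc39a14 were lost without WT VEH mouse D in CD VEH (adjusted p = 0.0695), without either WT VEH mouse in WT (up to 0.113) and without CD VEH mouse A in CD. Among 12 tested p53 pathway genes, Cdkn1a included, 4 were higher and 3 lower with JZL184 in WT (backgrounds 15.4% and 14.0%). Bax, Plk2 and Eda2r rose (0.54, 0.73 and 0.55; adjusted p = 0.00362, 0.00226 and 0.0172), the rise of Eda2r not being called without either WT VEH mouse (adjusted p up to 0.0983), and Cdkn1a fell together with Zmat3 (-0.24, adjusted p = 0.0285) and Mdm2 (-0.27, adjusted p = 0.00590), the latter named after its value was seen. Trp53, p53 itself, was the other that rose, by 0.26 (SE 0.09, adjusted p = 0.0447), a call that held in 9 of 19 alternatives.

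Of 13 tested genes of the hypoxia-inducible factor pathway, 3 were higher and 4 lower in CD VEH than in WT VEH, 1 was higher and 2 lower with JZL184 in WT, and 5 were higher and 2 lower with JZL184 in CD (backgrounds 15.0% and 15.4%, 15.4% and 14.0%, and 16.8% and 17.0%). Those called in CD VEH included Ankrd37 (0.91, SE 0.21, adjusted p = 0.0101), Vegfa (-0.71, SE 0.13, adjusted p = 0.00452) and Hif1a (-0.43, SE 0.09, adjusted p = 0.00731). The calls of Ankrd37 and Hif1a were lost without WT VEH mouse C, and that of Ankrd37 also without mouse D (adjusted p up to 0.0737 for each gene). Of 13 tested clock genes, edgeR called none between CD VEH and WT VEH, where 4 had an unadjusted p under 0.05 and DESeq2 called 2, Hlf and Cry1. With JZL184 edgeR and DESeq2 called 0 of them in WT and 0 in CD, where 1 and 0 had an unadjusted p under 0.05. Per2 alone was called between treated genotypes, lower in CD (log2 -0.94, SE 0.30, adjusted p = 0.0284), where mouse B holds the high value. The call was lost without mouse B, without CD JZL184 mouse C or E, and when only these groups were fitted (adjusted p up to 0.136). Of 10 tested immediate early genes, which rise within minutes of a stimulus, 4 were higher in CD VEH than in WT VEH and 3 lower with JZL184 in CD (backgrounds 15.0% higher and 17.0% lower). Ier2 was among both (0.74, adjusted p = 0.0207, and -0.82, adjusted p = 0.00668). Its rise was called in 14 of 19 alternatives and was lost with the gene length offset and without CD VEH mouse A or E or either WT VEH mouse (adjusted p up to 0.134), and its fall was called in 19 of 19. The rise of Btg2, another of the 4, was called in 9 of 19 and not by DESeq2.

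Genes outside the list whose log2 CPM followed a member most closely over the 11 hearts are given by Pearson's r, as a description. They share libraries, depth and group structure with the members. Sgk1 ran closest with Dph3, Polr2k and Gng5 (r = 0.98 each), Zbtb16 with Ddhd1 (0.95), Mlh3 and Lias (0.92 each), and Klf9 with Usp2 (0.95), Gpsm1 (0.94) and Tob2 (0.91). Mt1 and Mt2 shared Snf8 (0.98 with each) and Ece2 (0.96 and 0.95). Nr3c1 ran with Mast4 (0.95), Wee1 (0.94) and Kdm3a (0.91). The closest genes were further away for Tsc22d3 (Slc10a6, 0.89, Kcna5, 0.85, and Mrps18a, 0.84), Fkbp5 (Ifi205 and Ino80c, 0.85 each, and Map3k6, 0.84) and Cdkn1a (C330018D20Rik, 0.85, Srsf6 and Agfg1, 0.83 each). No member was among the others' 3 closest genes, since members were left out of the search.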

How the data were processed

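Ventricle RNA of 11 mice was analysed. Per the study's methods and the submitters' processing notes, the authors quantified transcripts with Salmon 0.7.2 against Ensembl release 85 (GRCm38) and summed them per gene with tximport 1.2.0, and the deposited values are estimated counts, not normalized. These were rounded to whole numbers. Columns name a group and a letter that the labels do not hold, so they were assigned to groups only. Gene symbols and positions came from GENCODE M21 (22315 of 22608 identifiers matched).

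The test took in genes whose log2 CPM averaged 1 or more, with TMM scaling and 1 quasi-likelihood model over all 4 groups in edgeR 4.0.16 (R 4.3.3), and Benjamini-Hochberg adjustment over 11319 genes. The common biological coefficient of variation was 9.13%. Nothing in the sources names separate cohorts or batches, and p-values measure the spread between these mice. No pair of mice of 1 group was alike within counting noise (chi-square per gene 22.6 to 125). Counting floors cover counting error only. Alternatives were all genes with counts, a minimum of 10 counts per mouse, relative log expression (RLE) or upper quartile scaling, DESeq2 1.42.0, fits of the compared groups only, no mitochondrial genes, a gene length offset, and each mouse left out. In simulated counts for CD VEH against WT VEH over 11319 genes, 200 genes were changed and every gene had the common spread. There edgeR recovered 72.0% of genes changed by 0.5 and 100% of those changed by 1 (log2), with 4.97% false calls. DESeq2 recovered the same shares with 9.47% false calls. Real genes differ in spread, so these shares need not hold for each member. Mt2, at 0.99 in this comparison, was not called.

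The members and the 8 further lists, some of which contain members, were chosen with earlier results of these data known. Named are all 10 members, up to 4 genes per list with the largest called difference in a comparison, 10 genes always named (Nr3c2, Hsd11b1, Hsd11b2, Fkbp4, Per1, Dusp1, Klf15, Ddit4, Pdk4 and Trp53), and the 3 genes closest to each tested member by Pearson's r. Of these only some are described. Promoter windows were taken from RefSeq. Nr3c1 and Zbtb16 had none.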

Additional observations from a re-analysis of the deposited data

Results flagged for a closer look

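The effect of JZL184 differed between CD and WT mice, by edgeR's interaction test, for 4 of the 9 tested glucocorticoid-responsive genes, where 51.5% of all tested genes passed it. The JZL184 effect in CD minus that in WT was -1.24 on the log2 scale for Sgk1, 0.89 for Zbtb16, 0.38 for Klf9 and -2.12 for Mt2. Sgk1 and Zbtb16 kept this difference in 18 of 18 alternative analyses. The Mt2 difference was called in 11 of 18. It was -1.17 (adjusted p = 0.0672) without WT JZL184 mouse B, -1.37 (adjusted p = 0.123) with the gene length offset and -1.71 (adjusted p = 0.145) without WT VEH mouse C.

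The same test passed for named genes of the other lists. Among receptors, ligand enzymes and cofactors it was -1.14 for Hsd11b1, -0.87 for Abcb1a, 1.05 for Ncoa1 and 0.90 for Nr3c2. Among other glucocorticoid-induced genes it was 0.99 for Klf15, 1.34 for Fbxo32, 1.11 for Pik3r1, -1.50 for Anxa1, -1.06 for Cebpd and -0.63 for Dusp1. That of Cebpd was called in only 8 of 18 alternatives, not by DESeq2, and came down to -0.69. That of Dusp1 was lost without WT VEH mouse D. All 5 tested inflammatory genes that glucocorticoids repress passed it in the negative direction (26.2% of all tested genes), among them Il1b at -1.84, Ccl2 at -1.79, Icam1 at -1.23 and Vcam1 at -0.87, the last not called without WT VEH mouse C (adjusted p = 0.0511). It was also negative and called for 6 of 6 macrophage, 6 of 6 endothelial and 5 of 5 tested smooth muscle and pericyte markers. The same held for 4 of 6 fibroblast and 5 of 5 tested erythroid markers. Of 6 cardiomyocyte markers, 3 were called positive and 1 negative (25.3% and 26.2% of all tested genes). The part of these markers in the values above was not tested.

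In the metal-responsive list the difference was 0.61 for Mtf1, 0.75 for Slc39a14 and -0.45 for Slc30a4. In the hypoxia-inducible factor pathway it was -1.39 for Ankrd37, -0.72 for Adm, 0.84 for Vegfa and 0.69 for Pdk1. With the gene length offset Adm was at -0.35 and not called (adjusted p = 0.135). In the p53 pathway it was -0.42 for Trp53, -0.96 for Bax, -1.13 for Plk2, -1.05 for Eda2r and -0.74 for Phlda3. That of Phlda3 was called in 16 of 18 alternatives, not with the gene length offset or without WT VEH mouse C, and came down to -0.36. Among immediate early genes it was -1.16 for Ier2, -1.01 for Junb, -0.89 for Btg2 and -0.67 for Atf3. Of these, Ier2 was called in 18 of 18 alternatives, Btg2 in 12, Atf3 in 10 and Junb in 9, not by DESeq2.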

How the results depend on the processing

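No paired analysis was possible by replicate number, because the columns carry a letter and not the replicate numbers of the labels. Letters recur between groups, but the sources used here do not say what a letter shared between groups marks. No fit blocked on the letters was run. The number of the 9 members called between CD VEH and WT VEH was 1, and became 2 without the filter on low counts, 2 with DESeq2, 2 with the gene length offset and 5 when only the compared groups were fitted, where the share of all tested genes called, 30.4%, became 16.8%, 34.5%, 23.8% and 35.0%. Between CD JZL184 and CD VEH it was 2 and became 4 with the compared groups only (33.9% and 41.4% of all tested genes). Between CD JZL184 and WT VEH it was 0 and became 1 with DESeq2 and 2 with the compared groups only (0.186%, 0.919% and 0.751%). With each mouse left out in turn the counts ran from 0 to 3 for CD VEH against WT VEH, 0 to 3 for WT JZL184 against WT VEH, 1 to 5 for CD JZL184 against CD VEH, 2 to 4 for CD JZL184 against WT JZL184, 0 to 1 for CD JZL184 against WT VEH and 2 to 5 for the interaction. The share of all tested genes moved too, from 3.43% (without WT VEH mouse C) to 37.0%, 4.93% (without WT VEH mouse C) to 39.6%, 18.0% to 41.1%, 26.1% to 43.0%, 0.106% to 0.292% and 40.4% to 56.6% in the same order. Calls were lost for Klf9 with JZL184 in WT (upper quartile scaling and the compared groups only), for Klf9 between treated genotypes (these, RLE scaling and no mitochondrial genes, adjusted p from 0.0517 to 0.0957) and, for the interaction, for Klf9 with upper quartile scaling and Mt2 with the gene length offset. The cause of these changes was not tested. Of single members' values, 401 kept direction and call under the single alternatives, 8 lost a call, 13 gained one and 1 turned sign, Nr3c1 for the interaction (-0.04 with the gene length offset). With 1 mouse left out the numbers were 519, 41, 15 and 19. The log2 differences that turned sign then ran from -0.19 to 0.01 for Tsc22d3 in CD VEH against WT VEH, from -0.01 to 0.10 for Nr3c1 and -0.46 to 0.03 for Fkbp5 with JZL184 in WT, and from -0.09 to 0.02 for Nr3c1, -0.27 to 0.25 for Fkbp5 and -0.30 to 0.07 for Tsc22d3 between treated genotypes. In CD JZL184 against WT VEH they ran from -0.05 to 0.06 for Nr3c1, -0.04 to 0.28 for Zbtb16, -0.19 to 0.07 for Mt1 and -0.29 to 0.73 for Mt2, and for the interaction from -0.38 to 0.15 for Fkbp5 and -0.19 to 0.18 for Tsc22d3. None of these differences was called in the main analysis. The 130 other named differences were picked because they were called in the main analysis, and the refits use the same mice. Of their values, 964 of 1010 under single alternatives and 1231 of 1430 with 1 mouse left out were still called, and all had the same direction. The number lost was 42 without WT VEH mouse C, 34 without WT VEH mouse D and 4 to 23 without each other mouse. Hif3a was the only member under the filter on low level, and a limit by depth was not tested.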
